A study of Mus musculus with 2 samples.

Results

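The droplets described here are a small set found inside a preparation of regulatory T cells sorted from mouse tumours. They were picked for transcripts of mature, migratory dendritic cells. Most also held T cell RNA, and 8 of the 72 went against the name, as described below. Members were chosen from their own counts. A barcode was kept if it had at least 500 detected genes and under 10% mitochondrial counts. A kept barcode was a member if it had at least 3 counts of Fscn1, at least 2 counts of Ccl22, Il12b and Cacnb3 together, and at most 3 counts of C1qa, C1qb and C1qc together. A count is a unique molecular identifier (UMI), which marks a captured transcript before amplification. The rule picked 72 of 7868 kept barcodes over both libraries.

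The study sequenced transcript 3′ ends by droplet single-cell RNA sequencing, with 1 library per genotype. The WT library came from C57BL/6 mice of genotype JMJD1CWT, and the cKO library from C57BL/6 mice of genotype JMJD1CTregcKO, in which the label places the conditional loss of the histone demethylase gene Jmjd1c in regulatory T cells (Tregs). All mice were 8 to 12 weeks old, and cells were taken from tumour tissue by density gradient, magnetic selection and fluorescence sorting for Tregs. The labels name no tumour model, Cre driver, exons removed or number of pooled animals. The sort was for T cells, so the number of dendritic cells recovered is not their abundance in the tumour.

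Dendritic cells take up antigen in tissue and then mature. Maturation turns on the chemokine receptor CCR7, which guides the cell along CCL19 and CCL21 into lymphatic vessels and lymph nodes, and the actin-bundling protein fascin (Fscn1), which supports the long processes the cell moves with. In tumours, cells of this state are known for carrying interleukin 12, costimulatory and inhibitory ligands at the same time, and for chemokines that attract T cells. CCL22 and CCL17 bind CCR4, a receptor of Tregs, and IL-12 p40 (Il12b) is a subunit of both IL-12 and IL-23.

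The WT library held 54 of the members among 3842 kept barcodes (1.41%, 95% Clopper-Pearson interval 1.06 to 1.83), and the cKO library held 18 among 4026 (0.447%, 0.265 to 0.706). Intervals here cover counting error only. With 1 library per genotype there was no test between genotypes, and no p-value is given anywhere. The libraries also differed in sex-linked transcripts. Xist was detected in 49 of the 49 WT droplets that carry the dendritic results below and in 0 of the 15 cKO ones. Y-linked transcripts were found in 0 of these WT droplets and 13 of these cKO droplets. Genotype, sex and library therefore cannot be told apart. The depth was 49063944 UMIs over 3905 barcodes in WT and 37666195 over 4105 in cKO. The libraries shared 2 barcodes, and 0 of them were members. WT members had a median of 26060.5 UMIs and cKO members 19065.5, against 8288 and 6153 in T cells of the same libraries.

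The threshold cases show what the rule let in. In WT, 2 kept barcodes with 2 counts of Fscn1 met the rest of the rule and had 91 and 174 Ccr7 counts, whereas the 2 members with 3 or 4 counts of Fscn1 had 2 and 10. Each of the 3 WT members with only 2 or 3 counts of Ccl22, Il12b and Cacnb3 together had 0 or 1 Ccr7 count. The 4 WT barcodes with 1 such count all had 0 Ccr7 counts and 54 to 1311 counts of 8 fibroblast and endothelial genes (Col1a1, Col1a2, Col3a1, Dcn, Pdgfra, Pecam1, Cdh5 and Sparc). The cKO cases were unlike these. The 4 cKO members with 2 or 3 such counts had 0 to 118 Ccr7 counts and 2 of them were rich in the 8 genes, and the 2 cKO barcodes with 1 such count had 1 and 60 Ccr7 counts and were not rich in them. No barcode failed on C1q alone in either library.

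Not every member matched the label. In 6 droplets, 3 in each library, the 8 fibroblast and endothelial genes reached 87 to 801 counts, while Ccr7 had 0 or 1 count and Ptprc, the pan-leukocyte surface phosphatase CD45, had 0 or 1. These matrix-rich droplets were large, with 54900 to 135309 UMIs, and each met the rule through 1 to 4 counts of Cacnb3, with 1 count of Ccl22 in 1 of them, beside 6 to 31 counts of Fscn1. They also held 6 to 106 counts of Sox9 and 25 to 112 of Cdkn2a. A further 2 WT droplets had under 5 counts of the class II genes Cd74, H2-Aa, H2-Ab1 and H2-Eb1 together, 0 counts of Ccl22 and Il12b, and 73 and 36 counts of the Treg genes Foxp3 and Ikzf2. These 8 droplets go against the name, and they held 22.3% of the WT members' UMIs and 48.5% of the cKO members' UMIs. Results are therefore given for the other 64 members, called dendritic droplets (49 WT, 15 cKO), and for all members. The exclusion was chosen after the data were seen and uses class II genes, so the presence of class II in the dendritic droplets is partly set by it.

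**Figure D1:**
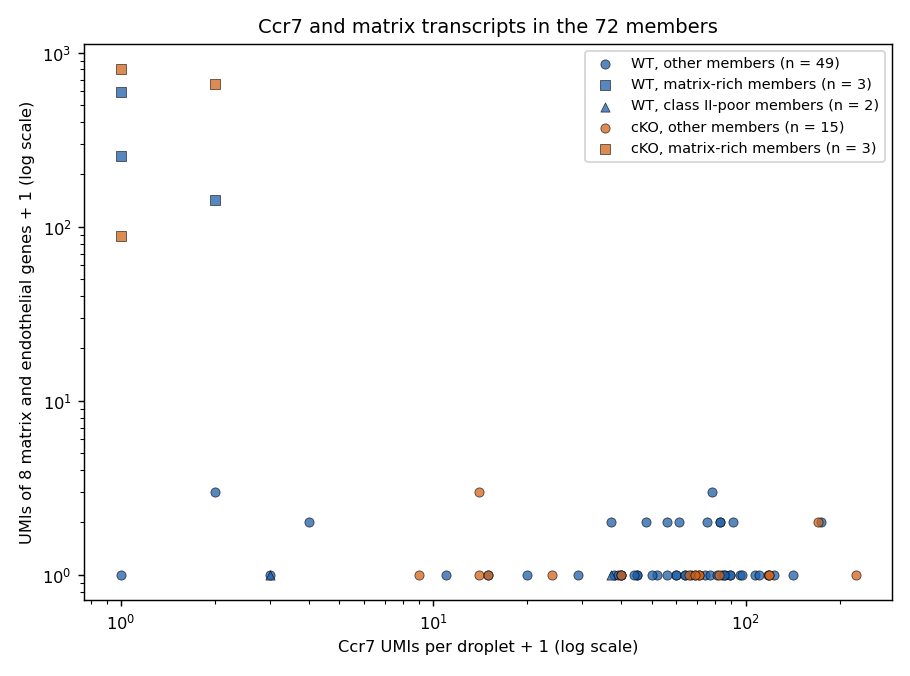
Each point is a member, with Ccr7 UMIs plus 1 on the x axis and the summed UMIs of 8 fibroblast and endothelial genes plus 1 on the y axis, both on log scales, coloured by library and shaped by class. The 6 matrix-rich members (squares) sit at 87 to 801 matrix counts with 0 or 1 Ccr7 count, apart from the 49 WT and 15 cKO dendritic droplets (circles), which hold at most 2 matrix counts.

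Most dendritic droplets also held T cell RNA. At least 3 counts of Cd3d, Cd3e, Cd3g, Trac and Trbc2 together were present in 40 of 49 WT dendritic droplets (81.6%, 68.0 to 91.2) and in 11 of 15 cKO ones (73.3%, 44.9 to 92.2). The same held for 53 of 99 WT myeloid cells (53.5%) and 87 of 315 cKO myeloid cells (27.6%). Myeloid cells were kept barcodes with at least 10 counts of the lysozyme gene Lyz2 that were not members. In the WT dendritic droplets with T cell RNA the median was 64 counts of these 5 genes, against 49 in Cd3-positive, Cd8-negative T cells. The droplets with T cell RNA had a median of 27057.5 UMIs and the 9 without it 19256. No doublet caller was run, and the part of droplets holding more than 1 cell in the results below was not tested.

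Some droplets with T cell RNA also held Cd8b1 RNA, and its source was not tested. At least 2 counts of Cd8b1, a chain of the CD8 coreceptor of cytotoxic T cells, were found in 11 of the 40 WT dendritic droplets with T cell RNA (27.5%, 14.6 to 43.9). That share was 7.34% (6.51 to 8.24) among 3612 other kept WT barcodes with T cell RNA and 1 of 53 among WT myeloid cells with it. In cKO it was 3 of 11 dendritic droplets (27.3%, 6.02 to 61.0) against 12.4% of 3576 other barcodes and 5 of 87 myeloid cells. All 11 WT droplets also passed a limit on Foxp3 and Ikzf2 counts, as did 34 of all 40 with T cell RNA. So did 248 of the 265 other kept WT barcodes with at least 2 Cd8b1 counts. In cKO 2 of the 3 dendritic droplets did. Foxp3 itself was found in 6 of 49 WT dendritic droplets with at most 2 UMIs, and Ikzf2 in 37. Median depth differed between these classes, at 27057.5 UMIs in the WT dendritic droplets, 24351 in the myeloid cells and 8764.5 in the other barcodes. None of the 13 dendritic droplets without T cell RNA reached 2 Cd8b1 counts.

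**Figure D2:**
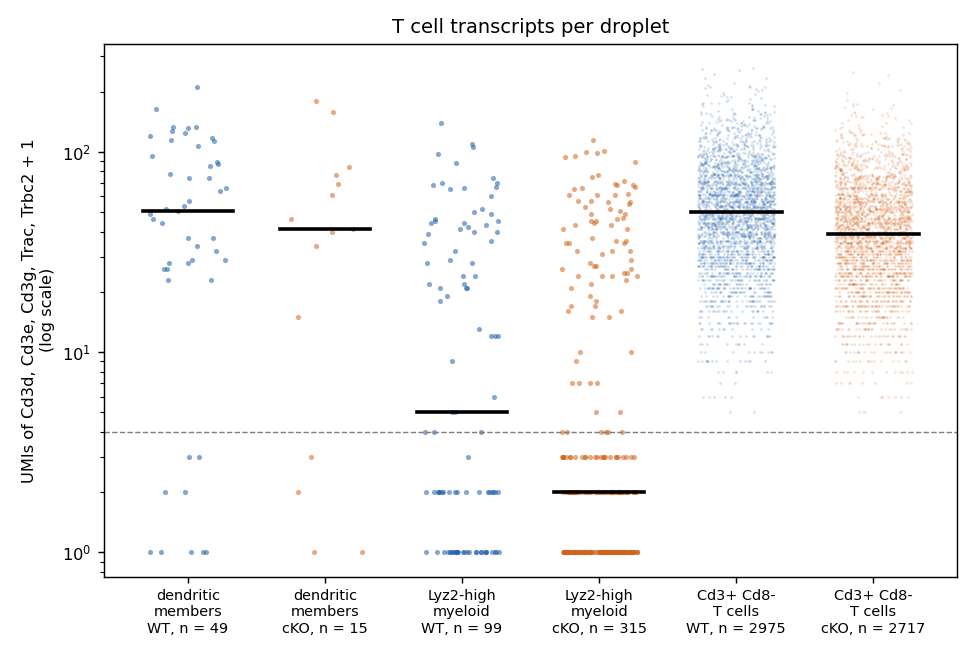
Summed UMIs of Cd3d, Cd3e, Cd3g, Trac and Trbc2 plus 1 per droplet (log scale) in dendritic droplets, Lyz2-high myeloid cells and Cd3-positive Cd8-negative T cells of each library. Bars mark medians and the dashed line the 3-count limit for T cell RNA. The WT dendritic droplets have a median of 50 counts before 1 is added, close to the 49 of T cells, with 9 of 49 droplets under the line.

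The genes that chose the cells are given as a description. Fscn1 ranged from 4 to 131 UMIs over the 49 WT dendritic droplets with a median of 43, and from 4 to 61 with a median of 24 over the 15 cKO ones. Ccl22 ranged from 0 to 124 (median 20) in WT and from 0 to 50 (median 7) in cKO. Cacnb3, a subunit of voltage-gated calcium channels, ranged from 3 to 19 (median 8) in WT and from 0 to 20 (median 10) in cKO. Il12b was far more uneven, with 39 of 49 WT droplets positive, a median of 5 and a maximum of 144. In cKO it was found in 8 of 15 droplets, with a median of 1 and a maximum of 41. Thinned to 13000 UMIs per cell, with shallower cells left out, 33 of 45 WT dendritic droplets held an Il12b UMI (79.6% of 49 before thinning), a share that the choice of cells partly sets. Summed over WT droplets, Fscn1 reached 1642 CPM (counts per 1e6 UMIs of the summed cells) against 0.905 in myeloid cells and 0.893 in T cells, and Ccl22 reached 1132 against 4.98 and 2.17. Il12b stood at 545 CPM against 0 of 2210304 myeloid UMIs, which makes it at least 401-fold higher if 3 counts are taken as the floor for the summed myeloid cells. In the mm10 build of the mouse genome these genes lie at chr5:142960343-142973185 (Fscn1), chr8:94745590-94751699 (Ccl22), chr11:44400063-44414033 (Il12b) and chr15:98630840-98644529 (Cacnb3), all protein-coding and on the forward strand.

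Markers that the rule did not use stood with them. Ccr7 (chr11:99144196-99155077, reverse strand) was found in 48 of 49 WT dendritic droplets, from 0 to 173 UMIs with a median of 63, and in 15 of 15 cKO droplets, from 8 to 224 with a median of 68. Ccr7 reached 2378 CPM in WT (2295 to 2463, exact Poisson) against 61.1 in myeloid cells and 352 in T cells. The ranges overlapped, since WT T cells reached 131 Ccr7 UMIs in single barcodes. When every cell was thinned to 13000 UMIs and shallower ones left out, Ccr7 was found in 44 of 45 WT dendritic droplets, 48.5% of 763 T cells and 16.9% of 83 myeloid cells (98.0%, 30.4% and 21.2% before thinning).

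The comparison of levels used the log2 ratio of CPM plus 5 between dendritic droplets and Lyz2-high myeloid cells of the same library, on summed counts. A gene was measured if the mean of both levels reached 20 CPM, and it is called higher or lower past a 4-fold ratio (log2 of 2). Of the further markers, the adaptor gene Samsn1 had a log2 ratio of 2.68 (2.34 over all 54 WT members), Tmem123 one of 2.79 (2.47), the cytokine signalling inhibitor Socs2 one of 2.78 (2.45) and the NF-kB subunit gene Relb one of 2.48 (2.17). Cd83, a surface glycoprotein of mature dendritic cells, and Cd40, the receptor for T cell help, had ratios of 1.39 (1.04) and 1.40 (1.11) and did not reach 4-fold. Cd83 was nonetheless found in 49 of 49 WT dendritic droplets, with 1 to 45 UMIs and a median of 12, and Cd40 in 35 of 49, with 0 to 27. Myeloid cells carried these 2 genes as well, at 194 and 38.0 CPM.

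**Figure D3:**
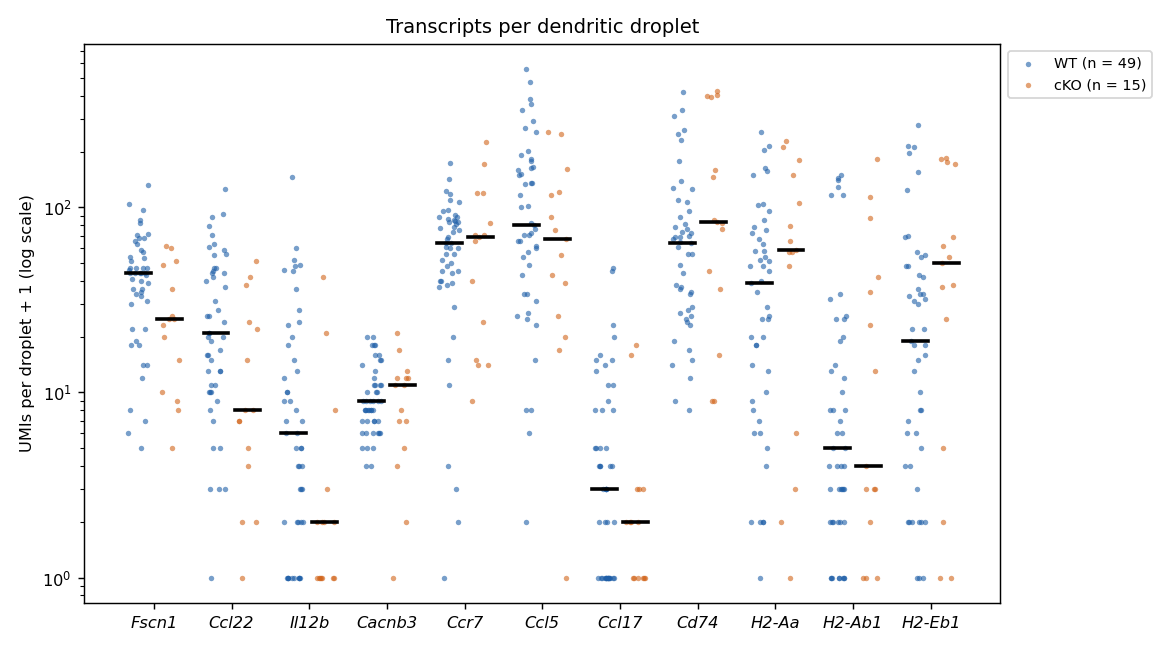
UMIs plus 1 (log scale) of 11 transcripts in each dendritic droplet, 49 from WT and 15 from cKO, with bars at the medians. In WT, Ccr7 has a median of 63 and Ccl5 of 79, whereas Il12b runs from 0 to 144 with a median of 5 and H2-Ab1 from 0 to 148 with a median of 4.

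In WT, 150 of 5325 measured genes were at least 4-fold higher in the dendritic droplets (2.82%) and 293 were at least 4-fold lower (5.5%). Over all 54 members 171 of 5465 were higher (3.13%) and 251 lower (4.59%). In cKO, 171 of 5110 genes were higher (3.35%) and 317 lower (6.2%) over the 15 dendritic droplets, and 297 of 5406 higher (5.49%) and 308 lower (5.7%) over all 18 members. Of the WT calls over dendritic droplets, 99 higher genes were also higher in cKO, 66% of the WT list and 57.9% of the cKO list. For lower genes 230 were shared, 78.5% and 72.6% of the lists. Of the 150 WT higher genes, 133 were also at least 4-fold higher in the 9 dendritic droplets without T cell RNA, and 9 had the opposite sign there. A level in T cells at or above their own was found for 3 of the 150, and all 3 were among those 9. The 9 WT and 4 cKO droplets without T cell RNA gave calls of their own, 5.47% of 5157 genes higher and 10% lower in WT, and 6.64% of 4696 higher and 18.3% lower in cKO. Here and below, dendritic droplets without T cell RNA are compared with all myeloid cells. These include the 53 of 99 in WT and 87 of 315 in cKO that held T cell RNA.

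The ranking by ratio depended on the matrix-rich droplets. Over all 54 WT members, 13 of the 20 highest genes drew at least 88.2% of their counts from the 3 matrix-rich droplets, among them Bgn, Sparc, Dcn, Col1a2, Col3a1, Sox9, Crabp1 and Cdkn2a. Sparc had 220 UMIs (log2 ratio 4.64) and Dcn 211 (4.70) over all members and 1 each without the 5 WT droplets that go against the name. Of the 171 WT calls for higher genes over all members, 60 were not made over the dendritic droplets. For genes called higher in both, the log2 ratio was larger over dendritic droplets by a median of 0.31.

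Over dendritic droplets the highest WT gene outside the rule was Tbc1d4, which encodes a GTPase-activating protein of vesicle traffic. It was found in 49 of 49 WT droplets with 10 to 123 UMIs and a median of 35, and in 15 of 15 cKO droplets with 1 to 38 and a median of 15. Its log2 ratio was 6.74 in WT (6.39 over all members) on 1965 UMIs, at 1501 CPM against 9.05 in myeloid cells and 17.3 in T cells. Tbc1d4 lies at chr14:101442360-101609191 on the reverse strand. Its level was higher still in the droplets without T cell RNA, at 2765 CPM. The next genes were Bcl2l14, a BCL2 family member (5.33, 4.99 over all members), Ccr7 (5.17, 4.83), and Il4i1, a secreted L-amino acid oxidase that limits T cell proliferation (5.07, 4.71). The fatty acid transporter family gene Slc27a3 followed with 226 UMIs against 1 in myeloid cells. Nudt17 had 185 UMIs against 0, at least 104-fold higher with the same floor.

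Serpinb9, the inhibitor of granzyme B, was found in 49 of 49 WT droplets (1 to 60 UMIs, median 22) and 15 of 15 cKO droplets (1 to 43, median 15). Its log2 ratio was 4.47 (4.12 over all members), and its relative Serpinb6b had 4.21 (3.85). Both were also present in T cells, at 197 and 219 CPM against 847 and 939 in the dendritic droplets. The membrane-bound metalloprotease Mmp25 (4.31, 3.96 over all members) and the actin-severing protein scinderin, Scin (4.31, 3.98), differed in spread. Mmp25 was found in 48 of 49 WT droplets with at most 24 UMIs, and Scin in 32 of 49 with up to 71. The 20 highest were completed by Ccl5, described below, and by Cd200, Cacna1s, Adgrg6, Slc4a8, Kdm4a, Snn, Strip2, Npr1 and Cd8a. Cacna1s encodes a pore subunit of voltage-gated calcium channels and had a ratio of 3.92 (3.57). The adhesion receptor gene Adgrg6 had 3.84 (3.50), the bicarbonate transporter gene Slc4a8 3.69 (3.37) and the histone demethylase gene Kdm4a 3.63 (3.32). Cd8a was present in 10 of 49 WT droplets and in 0 of the 9 without T cell RNA. In cKO it was present in 5 of 15 droplets and in 2 of the 4 without T cell RNA, which held 3 of its 63 UMIs. The T cells were chosen to hold no Cd8 counts, so no T cell level could keep Cd8a out of the 20. Genes that were higher but under 2 times their T cell level were kept out of the 20. Over dendritic droplets the highest of these were Ms4a4b (191 CPM against 204 in T cells), Nkg7 (526 against 582), Cblb (223 against 142), Birc2 (366 against 249) and Klrc1 (42.8 against 21.7). Over the 9 WT droplets without T cell RNA Ms4a4b had 0 UMIs, Nkg7 1 and Klrc1 1, while Cblb had 29 and Birc2 74. Over all 54 members they were Ube2c, Ccna2, Nusap1, Spint2 and Ccnb2. All 20 of the highest genes were at least 4-fold higher in cKO dendritic droplets too, with log2 ratios of 2.40 to 6.75.

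**Figure D4:**
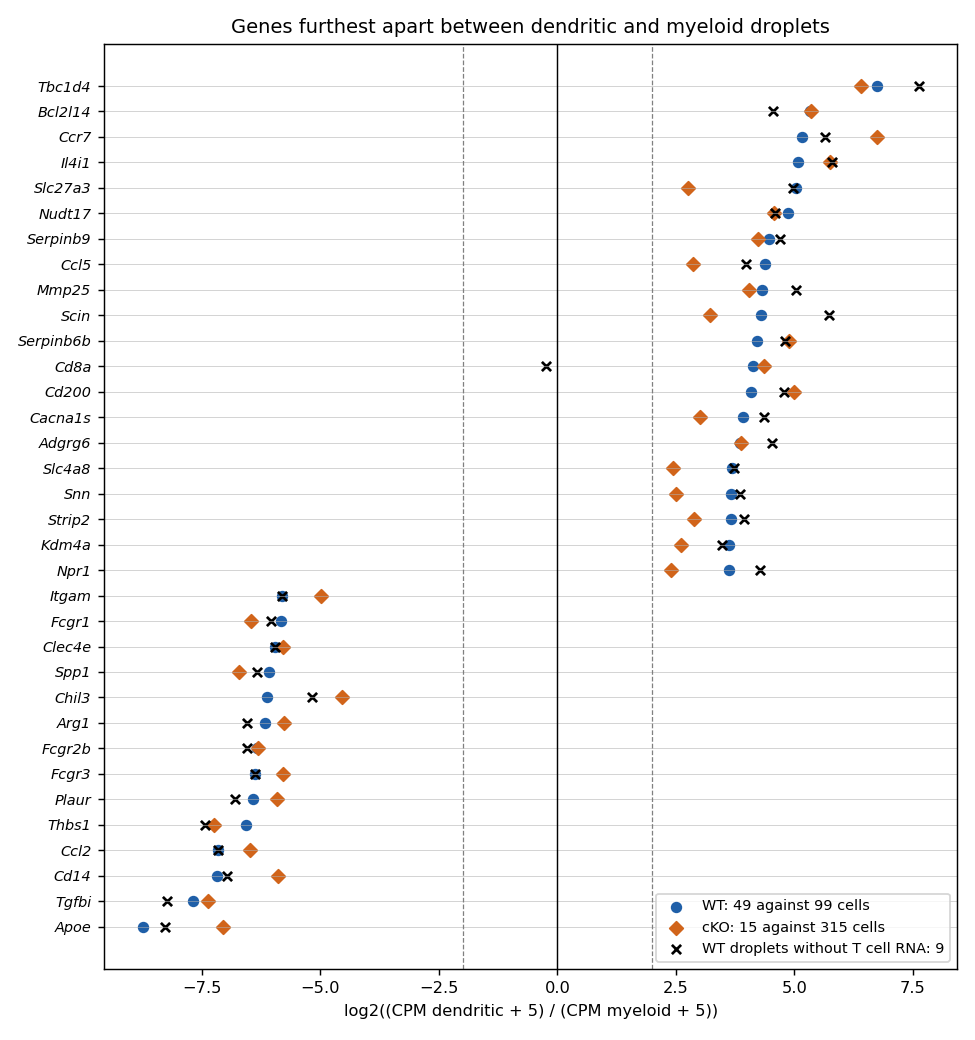
Log2 ratio of CPM plus 5 between dendritic droplets and myeloid cells for the 20 highest genes of WT and all but 1 of the 15 lowest, with WT (circles), cKO (diamonds) and the 9 WT droplets without T cell RNA (crosses); dashed lines mark 4-fold. WT values span 3.62 to 6.74 and -8.75 to -5.81, and Cd8a has 0 UMIs in the 9 WT droplets without T cell RNA.

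Of 26 genes listed for maturation, 19 were measured in WT, 14 of them at least 4-fold higher and 0 lower over dendritic droplets, with a median log2 ratio of 2.74 against 0.02 over all measured genes. Over all 54 members it was 13 of 19, with a median of 2.47 against 0.11. In cKO 16 of 20 were higher over dendritic droplets and 10 of 19 over all members. Mreg, a vesicle-sorting gene, had 73 UMIs in WT dendritic droplets against 0 in myeloid cells, at least 41.1-fold higher. In none of the 19 genes did the T cell level reach that of the dendritic droplets. This list and those below were chosen with earlier results of these data known, so their counts are a description. For each of them, the shares over all measured genes in WT dendritic droplets were 2.82% higher and 5.5% lower.

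Of 16 migration and cell shape genes, 13 were measured. Over all measured genes 2.82% were higher and 5.5% lower over WT dendritic droplets. Of the 13, 2 were higher and 0 lower, with a median of 0.91. Ccr7 and Marcks were the 2. Marcks, which links membrane to actin, was found in 49 of 49 droplets with 2 to 60 UMIs and stood at a log2 ratio of 2.002 (1.70 over all members). Its relative Marcksl1 (1.88, 1.71) and the motor gene Myo1g (1.98, 1.70) lay just under 4-fold. In WT droplets without T cell RNA 5 of 13 were higher. The metalloprotease gene Adam8 was at -0.77 (-1.04).

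Most measured chemokines and cytokines were lower in WT. Of 29 listed genes 21 were measured in WT dendritic droplets, with 1 higher and 13 lower and a median of -3.09 (1 higher, 12 lower of 22 and -2.53 over all members). Over all measured genes 2.82% were higher and 5.5% lower in WT dendritic droplets. The higher gene was Ccl5, a chemokine that attracts T cells, at chr11:83525778-83530518 on the reverse strand. It was found in 49 of 49 WT droplets with 1 to 555 UMIs and a median of 79, and in 14 of 15 cKO droplets with 0 to 255 and a median of 66. At 4807 CPM (4689 to 4927) it was the most abundant chemokine outside the rule, with 224 in myeloid cells and 319 in T cells, a log2 ratio of 4.39 (4.03 over all members). It was also high in the 9 droplets without T cell RNA, at 3622 CPM. Ccl17, the other CCR4 ligand, was at 224 CPM against 70.6, a log2 ratio of 1.60 (1.25), with 33 of 49 droplets positive and at most 46 UMIs. Monocyte chemokines were nearly absent. Ccl2 had 0 UMIs in the dendritic droplets against 1577 in myeloid cells, at least 311-fold lower, Ccl7 had 1 against 395, Ccl9 had 3 against 760, and Ccl12 had 2 against 295. The neutrophil attractant Cxcl2 was at -5.79 (-6.11), with 7 of 49 droplets positive and up to 50 UMIs in 1 of them.

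Costimulatory genes, a list of both ligands and receptors, were mixed. Of 15 listed genes 11 were measured in WT, 3 of them higher and 0 lower over dendritic droplets (2 of 11 over all members), with a median of 0.73. The shares over all measured genes were 2.82% higher and 5.5% lower. The 3 were Cd70, the ligand of CD27 (2.76, 2.45 over all members), Il15ra, which presents IL-15 to T cells (2.69, 2.39), and Tnfsf9, the ligand of 4-1BB (2.05, 1.74). Cd70 was found in 22 of 49 WT droplets and had 20.9 CPM in T cells against 56.5. The CD28 ligands were close to their level in myeloid cells. Cd80 was at 0.72 (0.38) and Cd86 at 0.50 (0.15), with 40 and 47 of 49 droplets positive. In 5 of the 11 genes the T cell level was at or above that of the dendritic droplets, Tnfrsf4 among them at 2214 against 755 CPM. In cKO 1 of 9 measured genes was higher over dendritic droplets and 0 of 9 over all 18 members.

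Of 21 genes listed as inhibitory or tolerogenic, 14 were measured in WT, with 4 higher and 2 lower over dendritic droplets (3 and 2 over all members) and a median of 0.25. The shares over all measured genes were 2.82% higher and 5.5% lower. Beside Il4i1 and Socs2 the higher genes were Cd200, whose product engages an inhibitory receptor on myeloid cells (4.09, 3.75), and Pdcd1lg2, which encodes PD-L2 (2.11, 1.85). Cd200 was found in 48 of 49 WT droplets with 0 to 19 UMIs and a median of 8, and in 13 of 15 cKO droplets with a median of 5. Cd274, which encodes PD-L1, was at 228 CPM against 112 in myeloid cells, a log2 ratio of 0.99 (0.65), with 47 of 49 droplets positive. Socs3, a feedback inhibitor of STAT3 signalling, was lower at -3.05 (-2.87). The other lower gene over dendritic droplets was Axl, a receptor kinase of dying-cell uptake, and over all members Havcr2, at -2.29 (-1.98 over dendritic droplets). In WT droplets without T cell RNA 4 of 14 were higher and 5 lower.

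All 20 listed genes of NF-kB and TNF receptor signalling were measured in WT, with a median of 0.66 over dendritic droplets. Over all measured genes 2.82% were higher and 5.5% lower there. Of the 20, 2 were higher and 0 lower (1 and 0 over all members). These were Relb and Birc2, a ubiquitin ligase of the TNF receptor complex (2.24, 1.94 over all members), whose level was under 2 times that of T cells. Rel had 1.80 (1.48) and Nfkbib 1.43 (1.14), and Relb and Rel were both found in 49 of 49 WT droplets. Of 11 measured survival genes 0 passed 4-fold. The antiapoptotic genes Bcl2a1d and Bcl2a1b had ratios of 1.94 (1.60) and 1.70 (1.36), and Mcl1 had -0.77 (-0.84). Bcl2a1b and Bcl2a1d are near-identical copies whose reads the counting may divide between them.

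Genes of the dendritic lineage were mostly above their level in myeloid cells. Of 10 dendritic lineage genes 9 were measured in WT, with 5 higher and 1 lower over dendritic droplets (4 and 1 over all members). Batf3, a transcription factor of cross-presenting dendritic cells, was found in 42 of 49 WT droplets with 0 to 12 UMIs and in 10 of 15 cKO droplets, at a log2 ratio of 3.21 (2.86 over all members). The growth factor receptor gene Flt3 was at 2.59 (2.27), Zbtb46 at 2.39 (2.25), Irf8 at 2.53 (2.17) and Cst3 at 2.25 (1.89). Zbtb46 rested on 59 UMIs. Itgax, which encodes CD11c, had only 2 UMIs over the 49 droplets against 174 in myeloid cells.

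No marker of the conventional subsets was at least 4-fold higher in WT. Of 10 genes of type 1 conventional dendritic cells 4 were measured in WT and all 4 were lower, including Naaa (-4.03, -3.57 over all members), Ppt1 (-2.35, -2.23), Rab7b with 0 UMIs against 308, and Wdfy4 with 2 against 90. Of 9 type 2 genes 5 were measured, with 0 higher and 2 lower over dendritic droplets. These were Sirpa (-3.10, -3.23) and Itgam, with 0 UMIs against 609. Klf4 was at -1.99 (-1.14), Mgl2 at -0.40 (-0.72) and Tnip3 at 0.72 (0.37). Of 8 plasmacytoid genes 2 were measured and neither passed 4-fold. Among other lineages, the 8 neutrophil genes had 0 UMIs in the members of both libraries, and the 9 B cell genes summed to 39.7 CPM in WT dendritic droplets and 82.8 in myeloid cells. The 8 NK cell genes summed to 84.8 CPM in WT dendritic droplets, 37.8 in T cells and 2.26 in myeloid cells, and the 1 measured gene of that list, Klre1, was at least 4-fold higher over dendritic droplets. Klre1 was found in 12 of 49 WT droplets, and all 8 genes had 0 UMIs in the 9 without T cell RNA. In the 4 cKO droplets without it 7 of the 8 genes had 0 UMIs. The 5 erythroid genes summed to 3.82 CPM in the 49 WT dendritic droplets.

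Genes of macrophages and monocytes were lower almost throughout. Of 20 listed, 19 were measured in WT and 19 were at least 4-fold lower over dendritic droplets (17 over all members), with a median log2 ratio of -4.81, or -5.23 with genes at 0 set to a floor of 3 counts. The myeloid cells were chosen by Lyz2 and the members by low C1q, so a part of this contrast follows from the choice of cells. Apoe had 4 UMIs over 49 WT droplets against 7649 in 99 myeloid cells, a ratio of -8.75 (-8.76 over all members). The endotoxin coreceptor gene Cd14 was at -7.17 (-7.10) and Thbs1 at -6.57 (-6.29). Csf1r, the receptor for colony stimulating factor 1, had 2 UMIs against 763. The Fc receptor genes Fcgr3, Fcgr2b and Fcgr1 had 0, 1 and 1 UMIs against 906, 1023 and 713. Arg1 had 2 against 1026, Chil3 had 1 against 882, and Tgfbi had 3 against 3305. All 15 of the lowest WT genes were also at least 4-fold lower in cKO dendritic droplets, with log2 ratios of -7.37 to -4.54.

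Receptors for microbes and uptake followed. All 10 measured genes of that list were lower in WT over both sets of droplets, with a median of -5.06 (-6.08 with genes at 0 set to the floor). Clec4n and Clec4e had 0 UMIs over the 49 WT droplets against 563 and 676. The signalling chain gene Fcer1g was at -4.98 (-5.28). Of 18 lysosomal genes all were measured, 9 of them lower over dendritic droplets and 7 over all members, with 0 higher. The dipeptidyl peptidase gene Ctsc was at -3.60 (-3.85) and the saposin precursor gene Psap at -3.03 (-3.003). In 11 of the 18 the T cell level was at or above that of the dendritic droplets.

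MHC class II molecules present peptides to CD4 T cells, and maturing dendritic cells are known to reduce class II transcription while keeping the protein at the surface. Of 14 listed genes 11 were measured in WT, 0 higher and 5 lower over dendritic droplets, with a median of -1.66 (0 higher, 6 lower of 10 and -2.28 over all members). The shares over all measured genes were 2.82% higher and 5.5% lower. In the dendritic droplets without T cell RNA 2 of 12 were lower in WT, with a median of -0.51, and 1 of 11 in cKO, with a median of 0.0095. The myeloid cells in that comparison still included those with T cell RNA, and the effect of this was not tested. H2-DMb1, a chain of the peptide editor H2-DM, had 11 UMIs against 1107, a ratio of -5.24 (-5.46). Its partner H2-DMa was at -3.13 (-3.36), H2-Ab1 at -2.61 (-2.96), the protease genes Ctss at -2.33 (-2.64) and Lgmn at -2.35 (-2.53), and Cd74, the invariant chain, at -1.66 (-2.02). In cKO 3 of 11 were lower and 1 higher over dendritic droplets, H2-DMb2 at 122 CPM against 23.1. There Cd74 was at -0.64 (-1.60 over all 18 members) on 2354 UMIs, H2-Ab1 at -1.33 (-2.28) and H2-DMb1 at -4.21 (-4.51) on 8 UMIs.

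Class II levels varied widely from droplet to droplet and together. Cd74 ran from 7 to 418 UMIs over the 49 WT droplets (median 63) and from 8 to 424 over the 15 cKO ones (median 82), against a median of 145 and a range of 0 to 1155 in WT myeloid cells. H2-Ab1 had a median of 4 UMIs with a maximum of 148, while in myeloid cells its median was 64. Across the 49 WT droplets, CPM of Cd74 had a Spearman rho of 0.74 with H2-Aa, 0.76 with H2-Ab1 and 0.76 with H2-Eb1, and H2-Aa and H2-Eb1 had 0.94. These droplets come from 1 library and share depth and T cell RNA, with which Cd74 had a rho of -0.34, so the values are a description. Cd74 had rho values of 0.13 with Ccl22, -0.16 with Il12b and 0.28 with Ccr7. Cd74 was at 6369 CPM in the 9 WT droplets without T cell RNA and at 2792 in the 40 with it.

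To show a sequence feature that class II genes share, the bases before the start of 6 of them are given, from RefSeq on GRCm38.p6. Class II promoters are known for a short conserved module that ends in a Y box, bound by the trimeric factor NF-Y, and the search was for its core, GATTGG, on both strands in the 250 bases before the start. It was found in all 7 of the listed H2 class II genes with an entry, within the last 100 bases in 6, and in 8 of 11 genes of the list with an entry. The share over all genes in the table was 16.6% of 27025, and 10.0% within 100 bases. The 6 shown are the H2 genes with the core within 100 bases, so the match chose them. The 100 bases before each start follow, 5′ to 3′ along the gene, with each core in capitals; CCAATC is the core on the opposite strand.
H2-Aa, chr17:34287824-34287923, reverse strand: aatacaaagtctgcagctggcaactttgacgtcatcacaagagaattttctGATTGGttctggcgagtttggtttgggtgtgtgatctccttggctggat
H2-Eb1, chr17:34305767-34305866, forward strand: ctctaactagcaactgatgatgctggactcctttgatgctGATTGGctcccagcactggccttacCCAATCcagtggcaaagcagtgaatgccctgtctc
H2-DMb1, chr17:34153091-34153190, forward strand: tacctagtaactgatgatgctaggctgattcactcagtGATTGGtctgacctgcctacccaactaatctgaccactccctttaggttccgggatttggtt
H2-DMb2, chr17:34145149-34145248, forward strand: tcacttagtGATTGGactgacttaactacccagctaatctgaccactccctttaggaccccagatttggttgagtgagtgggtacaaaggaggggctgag
H2-Oa, chr17:34092279-34092378, forward strand: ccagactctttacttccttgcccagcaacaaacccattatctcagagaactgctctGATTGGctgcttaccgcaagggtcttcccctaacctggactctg
H2-Ob, chr17:34238805-34238904, forward strand: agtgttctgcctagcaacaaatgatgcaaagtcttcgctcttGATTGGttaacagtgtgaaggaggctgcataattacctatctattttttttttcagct
H2-Aa and H2-Eb1 encode chains of the presenting molecules, H2-DMb1 and H2-DMb2 those of the peptide editor, and H2-Oa and H2-Ob those of its modulator. A match is a run of letters and says nothing of binding in these cells. The core was shared by genes whose ratio in WT dendritic droplets lay as far apart as H2-DMb1, with 11 UMIs against 1107 in myeloid cells, and H2-Oa, with 34 against 42.

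For class I presentation, all 14 listed genes were measured in WT, and 0 passed 4-fold in either direction, with a median of 0.39 (0.22 over all members). The proteasome activator gene Psme2 was at 1.30 (1.08) and the heavy chain gene H2-K1 at 0.61 (0.48). Over all measured genes 2.82% were higher and 5.5% lower in WT dendritic droplets. In the interferon response list 19 of 20 genes were measured, 0 higher and 3 lower over dendritic droplets (4 lower over all members). These were Ifit2 (-3.13, -3.18), Rsad2 (-2.43, -2.70) and Ifit3 (-2.36, -2.40), and Irf7 was at -1.91 (-2.13). T cell levels were at or above those of the dendritic droplets in 12 of the 19. In dendritic droplets without T cell RNA 8 of 17 were lower in WT, with a median of -1.69 against -0.52 over all 49, and 7 of 19 in cKO.

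Cell cycle genes depended on the droplets that go against the name. Over all 54 WT members 7 of 14 measured genes were higher, with Top2a at 2.50 and Mki67 at 2.53. Over the 49 dendritic droplets 0 of 9 were higher, with Top2a at 0.99 and Mki67 at 1.16, and all 9 had T cell levels at or above their own. The matrix-rich droplets supplied 64.4% of the Top2a and 53.4% of the Mki67 counts of the members. The T cell list itself had 17 of 18 genes measured in WT, 2 of them higher over dendritic droplets, Cd8a and Cd8b1, and 15 at or above the dendritic level in T cells. The T cells were chosen to hold no Cd8 counts, so Cd8a and Cd8b1 could not reach the dendritic level there. In WT droplets without T cell RNA 13 of 14 measured genes of that list were at least 4-fold lower than in myeloid cells. The choice of cells partly sets this. The droplets were chosen for under 3 counts of 5 T cell genes, while 53 of 99 WT myeloid cells held T cell RNA. Of 11 measured T cell receptors for dendritic ligands and related genes, all 11 had T cell levels at or above those of the WT dendritic droplets.

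**Figure D5:**
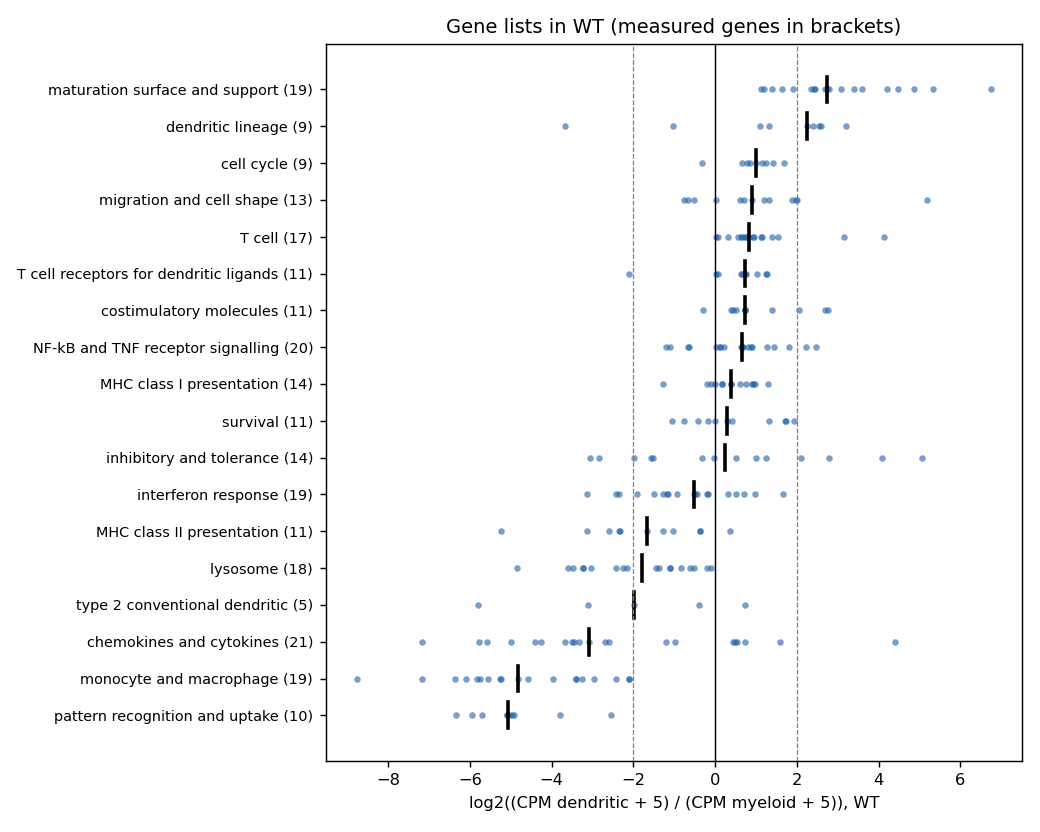
Log2 ratio of CPM plus 5 between the 49 WT dendritic droplets and 99 myeloid cells for the measured genes of each list with at least 5 measured genes; black bars are medians and dashed lines 4-fold. Maturation genes have a median of 2.74, and the macrophage and uptake lists lie at -4.81 and -5.06.

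Il12b divided the WT dendritic droplets into 10 with 0 UMIs, 23 with 1 to 9 and 16 with 10 or more. Summed Bcl2l14 was 131 CPM (85.9 to 193) in the first, 209 (175 to 247) in the second and 462 (402 to 528) in the last. Ccl17 was 101 (61.8 to 156), 226 (191 to 266) and 273 (228 to 325), and Ccl5 was 2619, 5181 and 5217. Il1b, named after its values were seen, ran the other way, at 1239, 678 and 412 CPM. Its median over droplets was 570, 293 and 0. Ccr7 was 3231, 2240 and 2205 CPM. The groups were cut on Il12b after the data were seen, so the values are a description of the WT library, and their median depths were 19636.5, 25910 and 26860.5 UMIs. The 40 WT droplets with T cell RNA held 690 of the 713 Il12b UMIs, at 602 CPM, and the 9 without held 23, at 141 CPM, with 6 of 9 positive and at most 8 UMIs. The median UMIs of T cell genes were 60.5, 50 and 44 over the 3 Il12b groups. The cKO library, cut the same way into 7, 6 and 2 droplets, did not give the same order. Bcl2l14 was at 472, 89.0 and 122 CPM there, Ccl5 at 4604, 4905 and 2022, Il1b at 1612, 2314 and 1586 and Ccr7 at 3442, 2768 and 5125, while Ccl17 was at 28.2, 169 and 331.

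On 15 dendritic droplets the cKO library kept the direction of the 20 highest and 15 lowest WT genes, but some list counts differed. Of 15 measured inhibitory or tolerogenic genes 3 were higher and 4 lower in cKO, with a median of -0.74. Of 21 measured chemokines and cytokines 2 were higher and 9 lower, with a median of -1.52. Over all measured cKO genes 3.35% were higher and 6.2% lower. Tbc1d4 had a log2 ratio of 6.42 on 239 UMIs (5.47 over all 18 members), Ccr7 6.75 on 1094 (5.80), Il4i1 5.74 on 121 (4.80), Bcl2l14 5.36 on 84 (4.42), Serpinb9 4.23 (3.30) and Ccl5 2.87 on 1321 (1.92). Cd83 was at 0.93 (-0.01), Cd274 at 0.68 (-0.22) and Cd40 at 1.14 (0.23), so the sign of Cd83 and Cd274 differed between dendritic droplets and all members. Cd14 was at -5.89 (-6.04) on 15 UMIs. The reference cells differed as well, since Ccl5 was at 575 CPM in cKO myeloid cells and 224 in WT ones, and these ratios are not compared between libraries. Il12b was at 237 CPM (186 to 298) on 74 UMIs in cKO and Ccl22 at 709 (618 to 809) on 221. The deleted gene gives no check of these cells, because the deletion is labelled for Tregs and the exons removed are not given. Jmjd1c was at 74.1 CPM (60.1 to 90.4) on 97 UMIs in WT dendritic droplets, a log2 ratio of -0.52 to myeloid cells (-0.23 over all members). In cKO dendritic droplets it was at 70.6 CPM (44.2 to 107) on 22 UMIs. In T cells it was at 90.8 in WT and 74.8 in cKO.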

How the data were processed

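Cells sorted as tumour Tregs were profiled with the 10x 3′ v2 droplet protocol, 1 library per genotype. The authors deposited matrices of raw UMI counts per gene and barcode, made on mm10 with Cell Ranger 5.0.1, per the submitters' processing notes and, for the version, per the file headers. The sources used here state no doublet removal. From these counts, cells were chosen by the rule in the text, summed per library and class, and compared as log2((CPM + 5)/(CPM + 5)) in Python 3.11.15 with numpy 2.4.6, scipy 1.17.1 and pandas 2.3.3. Scripts were tested on simulated data. T cells had at least 3 Cd3 UMIs, no Cd8 and at most 2 Lyz2 UMIs. Gene positions came from GENCODE M21 (32158 of 32285 identifiers matched). Members, 25 gene lists and tests were chosen with earlier results of these data known. Named genes were the rule genes, the 20 highest and 15 lowest ratios in WT (highest only if at least 2 times the T cell level, up to 5 that fail being named as such), up to 6 genes per list and 14 markers, and the same ranking over dendritic droplets was added later. The 2 settings without droplets against the name, or with T cell RNA, were added after the data were seen. With 1 library per group no test was possible, and intervals cover counting error only. Of the 15 lowest genes 1 is not reported here by name.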

Additional observations from a re-analysis of the deposited data

Results flagged for a closer look

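For 2 genes the members of the libraries differed from myeloid cells in opposite directions, with at least 1 ratio past 4-fold, and the difference was not tested. Ptn, which encodes the growth factor pleiotrophin, had a log2 ratio of 4.36 over all 54 WT members and -0.23 over all 18 cKO members. All 164 WT counts of Ptn came from the 3 matrix-rich droplets, and the WT dendritic droplets had 0. Ccl2 had -4.28 in WT and 1.60 in cKO. The cKO dendritic droplets had 0 of the 814 Ccl2 counts of the cKO members, and the WT dendritic droplets had 0 of 54, so the higher value in cKO comes from droplets that go against the name.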

How the results depend on the processing

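No paired analysis was possible because each genotype has 1 library. Stricter limits on genes, mitochondrial share, Fscn1 or the 3 other rule genes left 51 to 54 WT and 14 to 18 cKO members. Without droplets with T cell RNA, 10 WT and 6 cKO members were left, with 376 genes higher and 450 lower in WT and 587 lower in cKO. A minimum of 50 CPM gave 89 higher genes in WT and 135 in cKO, and no minimum gave 269 and 458. Without the droplets that go against the name 171 genes were higher in cKO. Dendritic droplets without T cell RNA gave 282 higher and 517 lower genes in WT and 859 lower in cKO, on 9 and 4 droplets; the cause was not tested. Of 52 WT ratios over all members past 4-fold printed above, 50 did not take the opposite sign under any of 15 alternatives. The exceptions, in dendritic droplets without T cell RNA, were Sparc (-0.12) and Mki67 (-1.82). A ratio of 0 was not counted as opposite, and Dcn and Ptn had 0 UMIs both there and in WT myeloid cells. Alternatives that changed only the 5 added to CPM or the minimum CPM cannot change a sign. Sizes were less stable. Over both libraries, 64 printed ratios were classed as moved in dendritic droplets without T cell RNA, against 26 as unchanged. Without the droplets that go against the name it was 44 against 48. Leaving out all droplets with T cell RNA moved 56, the mean of per-cell CPM 45 and thinned cells 37. Using only myeloid cells with over 3 C1q counts moved 29, and only those with at most 3 moved 24. A limit of 4 counts for the 3 other rule genes moved 28. Depth limits genes with few counts, since 3 UMIs stand for 2.29 CPM in WT and 9.62 CPM in cKO dendritic droplets.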
